A study of Mus musculus with 4 samples.

Results

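Transcripts of 9 chemokine ligand genes (Ccl1, Ccl3, Ccl4, Ccl5, Ccl22, Cxcl2, Cxcl10, Cxcl16 and Xcl1) were examined in γδ T cells of mouse fat. These are 9 of 46042 genes in the deposited tables, and each was found by its symbol in the row names. γδ T cells are lymphocytes that carry the γδ antigen receptor. The donors were male C57Bl/6 PLZF-GFP mice of 16 to 22 weeks, fed ad libitum, and the cells were sorted from their epididymal adipose tissue. The GFP reports PLZF, a transcription factor of innate-like lymphocytes (gene Zbtb16). Cells with the reporter signal (PLZF+) gave libraries A7 and B7, and cells without it (PLZF-) gave libraries A6 and B6. Both groups came from the same reporter strain, each library from a pool of 10 mice. No treatment is named in the labels, and A6, B6, A7 and B7 are codes of the table columns. All 4 column names also carry the tag SFD, which the labels do not explain. How γδ T cells were stained and gated, and whether both subsets came from the same mice, is not given in the sources used here.

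Chemokines are small secreted proteins that direct the movement of cells through G protein-coupled receptors. They are named CC, CXC or C by the spacing of their conserved cysteines. T cells and natural killer cells are known for making CCL3, CCL4, CCL5 and XCL1 when activated, while CXCL2 attracts neutrophils and CXCL10 is induced by interferon. CXCL16 is unusual in being made as a membrane-bound protein that can be shed.

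Values are normalized counts, which are estimated reads divided by a factor per library, or FPKM, which also divides by transcript length. Depth without the rRNA precursor Rn45s was 744569 to 981885 estimated reads in PLZF- and 1837511 to 2035066 in PLZF+ libraries. A count of 0 therefore bounds a gene more tightly in PLZF+ libraries (3 reads stand for 1.86 normalized counts in A7 and 1.67 in B7) than in PLZF- libraries (5.06 in A6 and 3.66 in B6). The T cell receptor genes Cd3e and Cd3g were present in all 4 libraries, but were higher in PLZF+ cells. Cd3e had 182 and 367 normalized counts in A6 and B6, and 552 and 661 in A7 and B7. Cd3e rose by 1.22 ± 0.30 on the log2 scale (SE, limma, adjusted p = 0.028). Fewer cells of a type and less RNA per cell cannot be told apart in bulk libraries.

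Most of the 9 ligand genes were found nearly only in PLZF- libraries. Ccl1, Ccl3, Ccl4, Ccl5, Cxcl2 and Xcl1 were lower in both PLZF+ libraries than in both PLZF- libraries, a separation that 27.2% of 9234 tested genes also showed (24.1% in the opposite direction). Cxcl10 had like levels in all 4 libraries, Cxcl16 had a few reads in 2 libraries, and Ccl22 was listed at 0 in every library. The 9 genes summed to 869 and 615 normalized counts in A6 and B6, and to 52.0 and 27.9 in A7 and B7. Of the 9, 6 had a mean of at least 10 normalized counts and were tested, and 4 of them fell (Ccl4, Ccl5, Cxcl2 and Xcl1), against 4.97% of all tested genes that fell and 7.45% that were called in either direction. Of the tested members only Cxcl10 reached a mean of 10 in PLZF+ libraries. The other tested members passed the filter through the PLZF- libraries alone, so the count describes them and supports nothing. The median log2 fold change over all tested genes was -0.03.

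**Figure D1:**
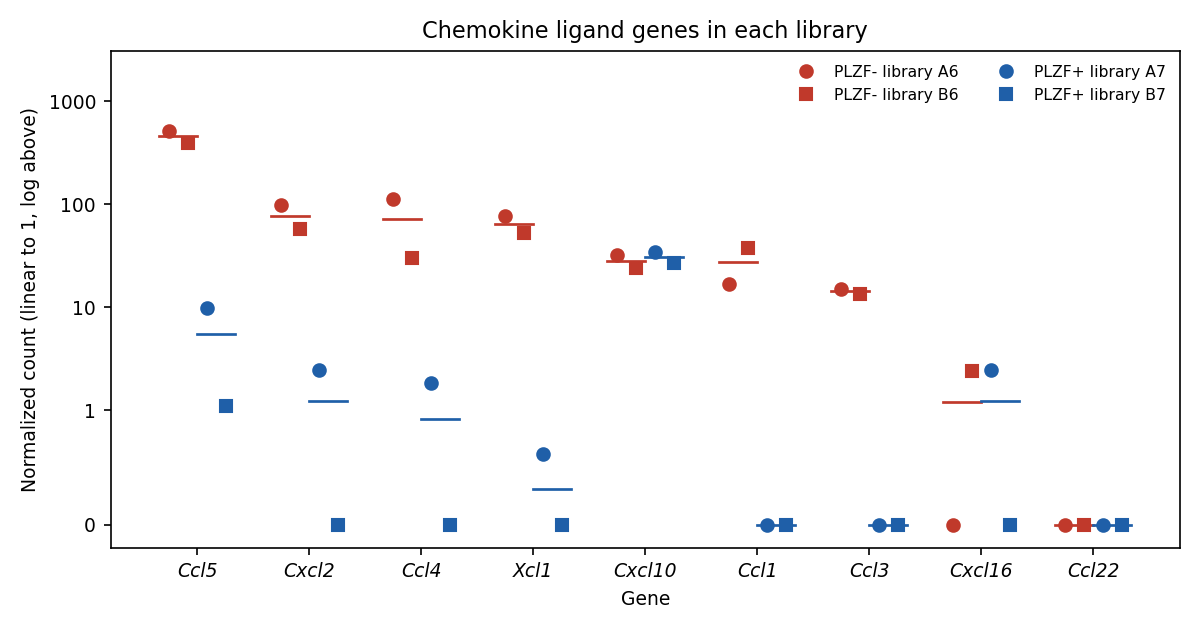
Normalized counts (y axis, linear to 1 and logarithmic above) of the 9 chemokine ligand genes (x axis) in PLZF- libraries (red) and PLZF+ libraries (blue), with circles for A6 and A7, squares for B6 and B7, and a bar at each mean of 2 libraries. Ccl5 lies at 516 and 396 against 9.91 and 1.12, while the 4 values of Cxcl10 lie between 24.4 and 34.7.

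Upstream sequences of 4 members are shown because Cxcl2, Xcl1 and Ccl3 were lower in PLZF+ libraries while Cxcl10 was not. They are the 250 bases before the start site in RefSeq on GRCm38.p6 (the assembly of mm10), written 5′ to 3′ on the gene's strand. Sequences were found for 6 of the 9 members, Ccl1 and Ccl22 among them. Capitals mark matches to 3 motifs searched on both strands: a form of the NF-κB site (GGG, any 2 bases, then TTTCC), the interferon-stimulated response element (GAAA, any 2 bases, then GAAA) and a core of the T-box site (GGTGTGA).
Cxcl2, chr5:90903649-90903898, plus strand: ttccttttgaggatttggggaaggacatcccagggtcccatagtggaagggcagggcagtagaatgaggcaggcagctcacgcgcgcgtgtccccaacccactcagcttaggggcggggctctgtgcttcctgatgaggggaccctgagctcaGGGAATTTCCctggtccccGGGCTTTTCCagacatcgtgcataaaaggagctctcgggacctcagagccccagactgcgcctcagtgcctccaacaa
Xcl1, chr1:164935523-164935772, minus strand: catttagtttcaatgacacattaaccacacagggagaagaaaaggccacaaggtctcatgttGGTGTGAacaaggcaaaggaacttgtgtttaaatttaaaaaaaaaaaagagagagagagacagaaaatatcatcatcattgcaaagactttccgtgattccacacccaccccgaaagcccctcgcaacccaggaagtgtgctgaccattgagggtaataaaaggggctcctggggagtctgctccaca
Ccl3, chr11:83649379-83649628, minus strand: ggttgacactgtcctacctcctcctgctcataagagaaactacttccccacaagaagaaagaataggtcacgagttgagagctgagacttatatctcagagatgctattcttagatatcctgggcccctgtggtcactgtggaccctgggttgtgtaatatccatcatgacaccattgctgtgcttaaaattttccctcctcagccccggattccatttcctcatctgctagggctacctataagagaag
Cxcl10, chr5:92348890-92349139, minus strand: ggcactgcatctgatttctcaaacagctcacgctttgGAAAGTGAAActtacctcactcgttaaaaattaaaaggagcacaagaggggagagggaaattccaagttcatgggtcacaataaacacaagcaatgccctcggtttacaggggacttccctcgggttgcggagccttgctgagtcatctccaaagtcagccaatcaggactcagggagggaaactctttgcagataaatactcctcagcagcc

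Cxcl2 held 2 matches to the NF-κB form, at bases 97 to 88 and 78 to 69 before the start. A match occurs in 1.41% of the 32851 RefSeq promoter windows of this length. Xcl1 held 1 match to GGTGTGA at bases 188 to 182 (3.33% of windows), and Cxcl10 held 1 match to the interferon-stimulated response element at bases 213 to 204 (2.98% of windows). The matches did not overlap one another. Ccl1, Ccl3 and Ccl22 held no match to these letters in this window. The NF-κB letters searched are a narrow form of that site, so a lack of matches does not show that other forms are absent. The Cxcl10 window, for example, holds gggaaattcc and gggacttccc, similar stretches that these letters miss.

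Ccl5 (chromosome 11, 83525771 to 83530551, mm10) encodes the CC chemokine RANTES, an attractant of T cells and monocytes. It was the most abundant of the 9 in PLZF- cells, with 516 and 396 normalized counts in A6 and B6, and had 9.91 and 1.12 in A7 and B7. Both PLZF- libraries lay far above both PLZF+ libraries, and A7 was the higher of the PLZF+ pair. The means were 456 ± 84.8 and 5.51 ± 6.22 (SD, n = 2 each). Ccl5 fell by 6.56 ± 0.68 on the log2(normalized count + 1) scale (limma, adjusted p = 9.4e-05). The reads behind these values were 306 and 325 in PLZF- and 16 and 2 in PLZF+ libraries. Their ratio was 84.5 (exact 95% interval 53.0 to 144, counting error only, since PCR copies are not independent molecules). Ccl5 passed under all 16 alternative settings, the authors' deposited Cuffdiff table among them, with a limma adjusted p of at most 0.041.

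Ccl4 and Ccl3 encode MIP-1β and MIP-1α, CC chemokines that are often released together with CCL5. Ccl4 (chromosome 11, 83662584 to 83664683) had 113 and 30.5 normalized counts in A6 and B6, and 1.86 and 0 in A7 and B7. As a ratio, the PLZF- libraries differed from each other by more for Ccl4 than for Ccl5 or Xcl1, but both were above the PLZF+ libraries. Ccl4 fell by 5.15 ± 1.17 (limma, adjusted p = 0.018), on 92 reads in PLZF- and 3 in PLZF+ libraries (ratio 73.9, exact 95% counting interval 24.5 to 365). The call was lost without A6 (adjusted p = 0.42), without B6 (0.056) or without B7 (0.063). It was also lost with a pseudocount of 0.25 (0.068), without a filter (0.0504) and without the trend and robust moderation (0.072).

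Ccl3 (chromosome 11, 83647843 to 83649378) had 15.2 and 13.4 normalized counts in A6 and B6 and 0 in A7 and B7. Its deposited row also names AK137525, an overlapping transcript, so its reads cannot be assigned to Ccl3 alone. It had 20 reads over the PLZF- libraries and none over the PLZF+ libraries, so it was at least 8.10-fold lower in PLZF+ cells, against a floor of 3 reads per library. It lay under the filter, and when tested without one its log2 fold change was -3.93 (limma, adjusted p = 0.11).

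Xcl1 (chromosome 1, 164931648 to 164935510) encodes lymphotactin, the C chemokine that attracts XCR1-bearing dendritic cells. It had 77.6 and 52.4 normalized counts in A6 and B6, 0.619 in A7 and 0 in B7. The single PLZF+ read lay in A7, and the PLZF- libraries were close to each other. Xcl1 fell by 5.67 ± 1.15 (limma, adjusted p = 0.0096). Without A6 or B6 the adjusted p was 0.30 and 0.091.

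Cxcl2 (chromosome 5, 90903899 to 90905938) encodes MIP-2, a neutrophil attractant that acts through CXCR2. It had 97.8 and 57.3 normalized counts in A6 and B6, and 2.48 and 0 in A7 and B7. Both PLZF+ libraries were again below both PLZF- libraries. Cxcl2 fell by 5.35 ± 1.04 (limma, adjusted p = 0.0076), on 105 reads in PLZF- and 4 in PLZF+ libraries (ratio 63.3, exact 95% counting interval 24.0 to 237). Without A6 or B6 the adjusted p was 0.22 and 0.067.

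Ccl1 (chromosome 11, 82176657 to 82305690) encodes the ligand of CCR8. This interval extends well past the RefSeq start site, whose upstream window lay at 82179813 to 82180062. Where in the interval its reads lay is not given. Ccl1 had 16.9 and 37.8 normalized counts in A6 and B6 and 0 in both PLZF+ libraries. Of the 6 ligands that separated the subsets, Ccl1 alone was higher in B6 than in A6. It had 41 reads over the PLZF- libraries and none over the PLZF+ libraries, so it was at least 15.5-fold lower in PLZF+ cells. Its fitted log2 fold change of -4.72 ± 1.65 did not pass (limma, adjusted p = 0.12). It passed on the FPKM table (0.00097) and without the trend and robust moderation (0.025).

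**Figure D2:**
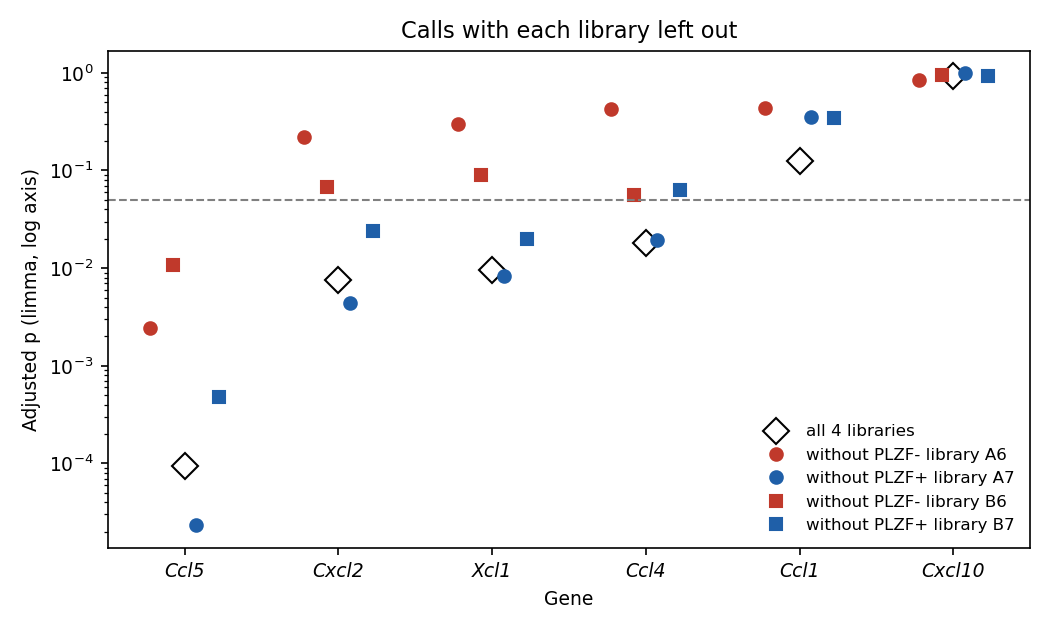
Limma adjusted p (y axis, logarithmic) of the 6 tested chemokine ligands (x axis) with all 4 libraries (diamonds) and with each library left out (red for PLZF- and blue for PLZF+ libraries, circles for A and squares for B), and a dashed line at 0.05. Ccl5 is below the line in every case, whereas Cxcl2, Xcl1 and Ccl4 are above it without A6 or B6. Ccl1 has no point without B6, where its mean fell under the filter.

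The authors' deposited table divided these ligands differently. It gave q-values of 0.0019 for Ccl1, 0.0019 for Ccl3 and 0.033 for Ccl5, which passed, and of 0.61 for Xcl1, 0.62 for Ccl4 and 0.62 for Cxcl2, which did not. Of the 9226 loci tested in the authors' deposited table, 3.91% were called lower and 1.82% higher in PLZF+ cells. Xcl1, Ccl4 and Cxcl2 had reads in A7 and none in B7, whereas Ccl1 and Ccl3 had none in either.

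Cxcl10 encodes a CXCR3 ligand that is induced by interferon. It had 32.1 and 24.4 normalized counts in A6 and B6, and 34.7 and 26.8 in A7 and B7. The subsets overlapped, and each A library was higher than the B library of its subset. The log2 fold change was 0.12 ± 0.58 (limma, adjusted p = 0.93). By reads, the ratio of PLZF- to PLZF+ was 0.904 (exact 95% counting interval 0.609 to 1.32), on 39 and 104 reads. Its deposited interval (chromosome 5, 92331841 to 92414627) also holds Art3 and Cxcl11. Both were counted as rows of their own and listed at 0 in all 4 libraries. The strand setting of the counting is not stated in the labels, and without it the reads of overlapping genes cannot be told apart.

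Cxcl16 and Ccl22 were at or near 0. Cxcl16 (chromosome 11, 70454234 to 70466199), the ligand of CXCR6, had 2 reads in B6 and 4 in A7 and none in A6 or B7. Ccl22 (chromosome 8, 94745680 to 94751388), a CCR4 ligand known from dendritic cells and macrophages, had 0 reads in every library. A count of 0 allows up to 1.67 normalized counts in B7, the deepest library, and up to 5.06 in A6, the shallowest.

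Levels of different genes were compared by FPKM. In PLZF- cells the order of mean FPKM was Ccl5 (1190 ± 188), Xcl1 (198 ± 49.2), Ccl4 (119 ± 94.0), Ccl1 (81.0 ± 43.8), Cxcl2 (45.7 ± 19.3), Cxcl10 (20.1 ± 3.71), Ccl3 (13.8 ± 3.84) and Cxcl16 (0.530 ± 0.750, SD, n = 2 each). Xcl1 overlapped Ccl4, Ccl4 overlapped Ccl1 and Ccl1 overlapped Cxcl2, so these neighbours were not separated by their spread, while Cxcl2 lay above Cxcl10 in both libraries. Ccl5 stood apart from Xcl1, and ranked 20 and 31 among all genes by FPKM in A6 and B6. It made up 70.0% and 73.1% of the FPKM summed over the 9 genes in A6 and B6.

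In PLZF+ cells Cxcl10 took the first place, with 21.4 ± 3.56 FPKM (SD, n = 2), ahead of Ccl5 with 12.8 ± 14.1. Their values overlapped, at 23.9 and 18.9 FPKM for Cxcl10 and 22.7 and 2.87 for Ccl5 in A7 and B7. Cxcl10 made up 43.9% and 86.8% of the summed FPKM of A7 and B7. Its own FPKM in A6 and B6 was 22.7 and 17.4, which overlapped the PLZF+ values. The summed FPKM was 1890 and 1447 in A6 and B6, and 54.4 and 21.7 in A7 and B7.

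**Figure D3:**
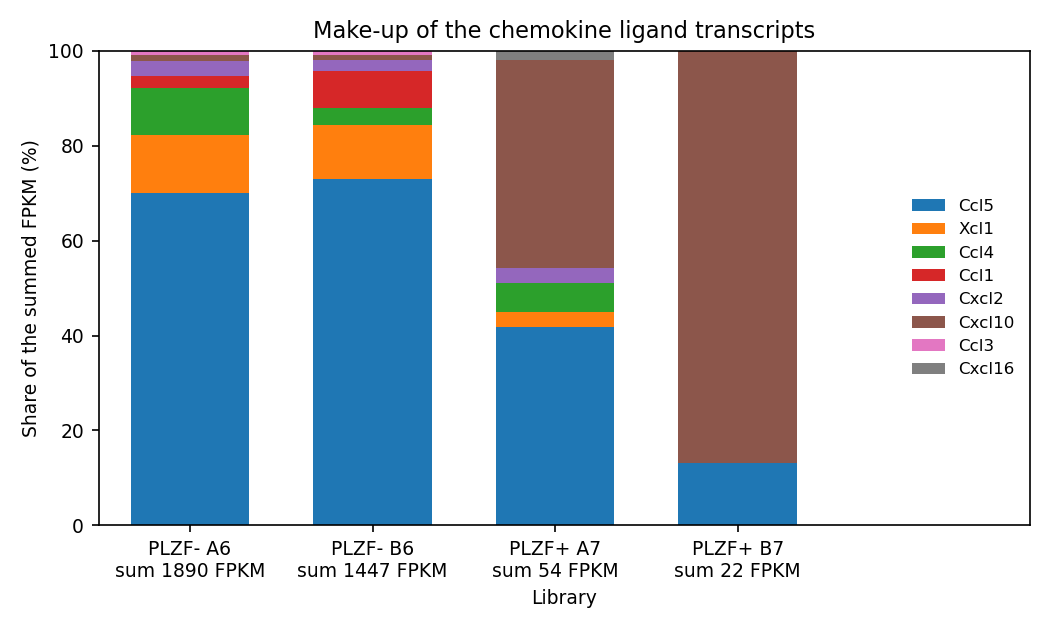
Share of each chemokine ligand gene (colours) in the FPKM summed over the 9 genes (y axis, percent), one bar per library, with the sum printed under each bar. Ccl5 takes 70.0% and 73.1% of the PLZF- bars, and Cxcl10 takes 43.9% and 86.8% of the PLZF+ bars.

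The PLZF+ libraries differed from each other in the ligands that were low there. A7 held 16 of the 18 PLZF+ reads of Ccl5, and all PLZF+ reads of Ccl4, Cxcl2, Xcl1 and Cxcl16. The A7 levels of Ccl4, Ccl5, Cxcl2 and Xcl1 were 2.59%, 2.17%, 3.19% and 0.953% of their PLZF- means. In B7, Ccl5 was at 0.245% and the other 3 had no reads.

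Many genes used as markers of other cells were also lower in PLZF+ libraries. Bulk libraries do not show which cells these transcripts came from. Of 11 markers of natural killer and group 1 innate lymphoid cells, led by Ncr1, Klrb1c and Nkg7, 9 were tested and 9 fell. They summed to 2907 and 2738 normalized counts in A6 and B6 and to 95.4 and 51.9 in A7 and B7, with Klre1, Eomes, Gzma, Klra8 and Fcgr3 at 0 in PLZF+ libraries. Of the tested markers, only Klrb1c and Gzmb reached a mean of 10 in PLZF+ libraries. The others passed the filter through the PLZF- libraries alone, so the count describes them and supports nothing. Some genes of the lists that follow, such as Klrg1, Siglech and Itgax, passed the same way. Over all tested genes, 4.97% fell and 2.48% rose. Of 9 markers of group 2 innate lymphoid cells, 6 were tested and 5 fell. The list, led by Rora, Il1rl1 and Gata3, summed to 6070 and 4744 against 2331 and 2472. Rora alone gave 3082 and 2190 of these counts in A6 and B6, and 2156 and 2357, nearly all, in A7 and B7. Rora was the tested gene that did not pass (log2 fold change -0.20, limma, adjusted p = 0.58), and Il9r and Il17rb were at 0 in PLZF+ libraries. These cells are known to make CCL5, XCL1 or CCL1, and the part of such cells in the ligand values was not tested.

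Of 11 plasmacytoid dendritic cell markers, led by Irf8, Ccr9 and Runx2, 7 were tested and 4 fell. They summed to 935 and 559 normalized counts in A6 and B6 and to 120 and 91.5 in A7 and B7, with Siglech, Spib, Cox6a2, Ly6d and Klk1 at 0 in PLZF+ libraries. The dendritic cell and MHC class II list (13 genes in 12 loci, led by H2-Ab1, Cd74 and H2-Aa) summed to 1648 and 832 against 222 and 73.0, and 4 of its 10 tested loci fell. The mast cell and granulocyte list (12 genes, led by Kit, Cpa3 and Cma1) summed to 1063 and 557 against 334 and 49.7, and 1 of 5 tested genes fell. S100a8, S100a9, Ly6g, Csf3r and Retnlg of that list were at 0 in all 4 libraries. In the sums of all 3 lists A7 exceeded B7, as it did for Ccl4, Ccl5, Cxcl2 and Xcl1, and A6 exceeded B6. Among plasmacytoid dendritic cell markers only Runx2 (84.2 and 30.7 in A7 and B7) and Ccr9 (9.91 and 2.23) were higher in A7. Irf8 (4.95 and 16.2), Bst2 (21.1 and 31.8), Tcf4 (0 and 5.58) and Pacsin1 (0 and 5.02) were higher in B7. The part of the cells of these lists in the ligand values was not tested.

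Few macrophage markers were found, with sums of 79.3 and 101 normalized counts in A6 and B6 and 19.8 and 32.4 in A7 and B7. Ctss, Lyz2 and Cd68 led the list, C1qa, C1qb, C1qc, Mrc1, Fcgr1, Mertk and Cd163 were at 0 in all 4 libraries, and 0 of 1 tested gene passed (Ctss, limma adjusted p = 0.16, and 0.022 before adjustment). Stromal markers were at 0 in every library. Adipocyte markers summed to at most 5.06 and B cell markers to at most 33.4, the latter from Cd79b. Endothelial markers (113 and 117 against 160 and 156) came mostly from Pecam1, which leukocytes also express. Of the αβ T cell list, 2 loci were tested, of which 1 fell and 1 rose. The β chain locus that holds Tcrb segments had 3506 and 2165 normalized counts in A6 and B6 and 1244 and 926 in A7 and B7 (log2 fold change -1.36 ± 0.23, limma, adjusted p = 0.0030). The locus of Tcra, which also holds Tcrd segments of the δ chain, had 744 and 893 in A6 and B6 and 2723 and 2615 in A7 and B7 (1.71 ± 0.17, adjusted p = 7.5e-05). Cd4 and Cd8a of this list had 13.5 and 11.8 in A6, 4.88 and 1.22 in B6, and 0 in PLZF+ libraries. Cd8b1 ran the other way between the PLZF- libraries, with 1.69 in A6 and 14.6 in B6, and was also at 0 in PLZF+ libraries.

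Of 32 other chemokine ligand genes in the list used, 28 were measured, and 3 passed the filter. These 3 passed through the PLZF- libraries alone, so a count of calls among them supports nothing (4.97% of all tested genes fell). Cxcl1, a neutrophil attractant next to Cxcl2 on chromosome 5, had 59.0 and 41.5 normalized counts in A6 and B6 and 0 in A7 and B7, at least 28.5-fold lower in PLZF+ cells. It was the member of this list that fell (1 of 3, fitted log2 fold change -5.66 ± 1.33, limma, adjusted p = 0.021), and it did not pass without A6 (0.41) or B6 (0.14). Ccl2 had 23.6 and 25.6 in A6 and B6, and 8.05 and 0 in A7 and B7 (adjusted p = 0.21). Ccl7 had 32.1 and 4.88, and 9.91 and 0 (0.51). Both encode attractants of monocytes, and both had reads in A7 but not in B7. Ccl20, the CCR6 ligand, was listed at 0 in every library, as were Cxcl9 and Cxcl13.

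The genes of the receptors of these ligands did not move as one group. Of 10 listed receptors, 5 passed the filter, with a median log2 fold change of -0.06. Of these, 1 fell (Ccr8, against 4.97% of all tested genes) and 1 rose (Cxcr6, against 2.48%). The other 3 (Ccr4, Cxcr3 and Xcr1) did not pass. With a mean of 2.79 in PLZF+ libraries, Ccr8 passed the filter through the PLZF- libraries alone. Its call therefore describes it and supports nothing. Ccr8, the receptor of CCL1, had 309 and 250 against 5.57 and 0 and fell by 6.76 ± 0.82 (limma, adjusted p = 0.00027). Its value sums 2 overlapping loci, neither of which passed in the authors' deposited table (q = 0.61 and 0.67). It also missed the threshold without the trend and robust moderation (0.051). Ccr8, like its ligand gene Ccl1, was higher in both PLZF- libraries than in both PLZF+ libraries.

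Cxcr6, the receptor of CXCL16, had 1345 and 1537 normalized counts in A6 and B6 and 3320 and 3470 in A7 and B7. It rose by 1.24 ± 0.16 (limma, adjusted p = 0.0004), although Cxcl16 itself was near 0. The value sums 2 overlapping loci of this symbol, and the call was lost without the trend and robust moderation (0.19). Ccr4, a receptor of CCL22, had 180 to 189 in all 4 libraries (log2 fold change 0.02, adjusted p = 0.99). Cxcr3, the receptor of CXCL10, had 152 and 262 against 170 and 217 (-0.06, adjusted p = 0.94). Xcr1, the receptor of XCL1, had 43.9 and 11.0 against 22.9 and 19.5 (-0.06, adjusted p = 0.97). Cxcr2, the receptor of CXCL2, was listed at 0 in every library.

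**Figure D4:**
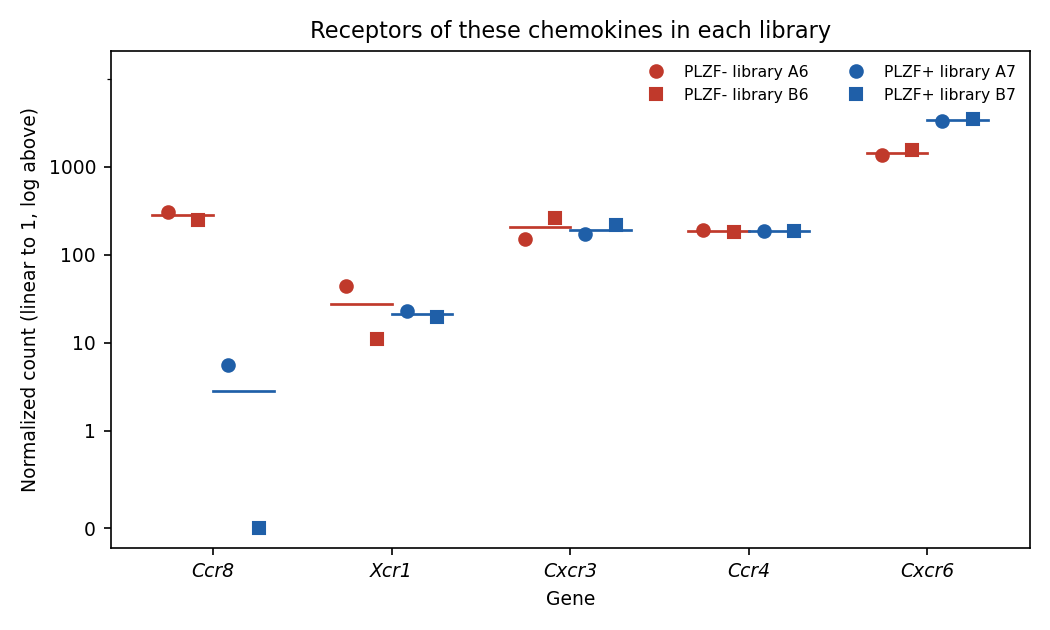
Normalized counts (y axis, linear to 1 and logarithmic above) of the 5 tested receptor genes (x axis) in PLZF- (red) and PLZF+ (blue) libraries, with circles for A6 and A7, squares for B6 and B7, and a bar at each mean of 2 libraries. Ccr8 is higher in PLZF- libraries, Cxcr6 in PLZF+ libraries, and Xcr1, Cxcr3 and Ccr4 overlap.

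Genes that act on chemokines after synthesis were measured for 6 of 6 in the list. Of these 1 was lower and 1 higher, against 4.97% and 2.48% of all tested genes. Dpp4, a surface protease that trims the ends of several chemokines, had 128 and 56.1 normalized counts in A6 and B6 and 6.19 and 0 in A7 and B7. It fell by 5.00 ± 1.02 (limma, adjusted p = 0.0098). With a mean of 3.10 in PLZF+ libraries, Dpp4 passed the filter through the PLZF- libraries alone. Its call therefore describes it and supports nothing. Without A6 or B6 it did not pass (0.21 and 0.063). Sdc1, a heparan sulfate proteoglycan of the kind that binds chemokines, had 11.8 and 12.2 against 105 and 140. It rose by 3.23 ± 0.52 (adjusted p = 0.0021, and 0.11 without B7). Adam10 and Adam17, the proteases known to shed CXCL16, had log2 fold changes of 0.13 and 1.16 (adjusted p = 0.81 and 0.093). Srgn, the granule proteoglycan serglycin, had -0.45 (0.20), and Sdc4 had -0.77 (0.20).

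Of 12 transcription factors known to act on chemokine promoters, 5 fell, 0 rose and the median log2 fold change was -0.79. Over all tested genes, 4.97% fell, 2.48% rose and the median was -0.03. The NF-κB subunit Nfkb1 had 1481 and 973 normalized counts in A6 and B6 and 487 and 352 in A7 and B7, and fell by 1.53 ± 0.24 (limma, adjusted p = 0.0020, and 0.087 without B7). Rel, another subunit, whose locus also names Gm20645, fell by 1.90 ± 0.27 (0.0009). Rela had a log2 fold change of 0.31 (0.79), Nfkb2 of -0.70 (0.17) and Relb of -0.74 (0.32). Tbx21, which encodes the T-box factor T-bet, fell by 2.13 ± 0.48 (0.017), and did not pass without B6, A7 or B7 (0.10, 0.16 and 0.068). Of the interferon regulatory factors, Irf8 fell by 4.28 ± 0.59 (0.00073) and Irf1 by 1.07 ± 0.29 (0.041). With 1 library left out, Irf1 did not pass in any case (0.071 to 0.33). Irf8 is also in the list of plasmacytoid dendritic cell markers. Irf3, Irf7, Klf13 and Runx3 did not pass (adjusted p 0.38 to 0.83). Without the trend and robust moderation 0 of the 12 passed.

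**Figure D5:**
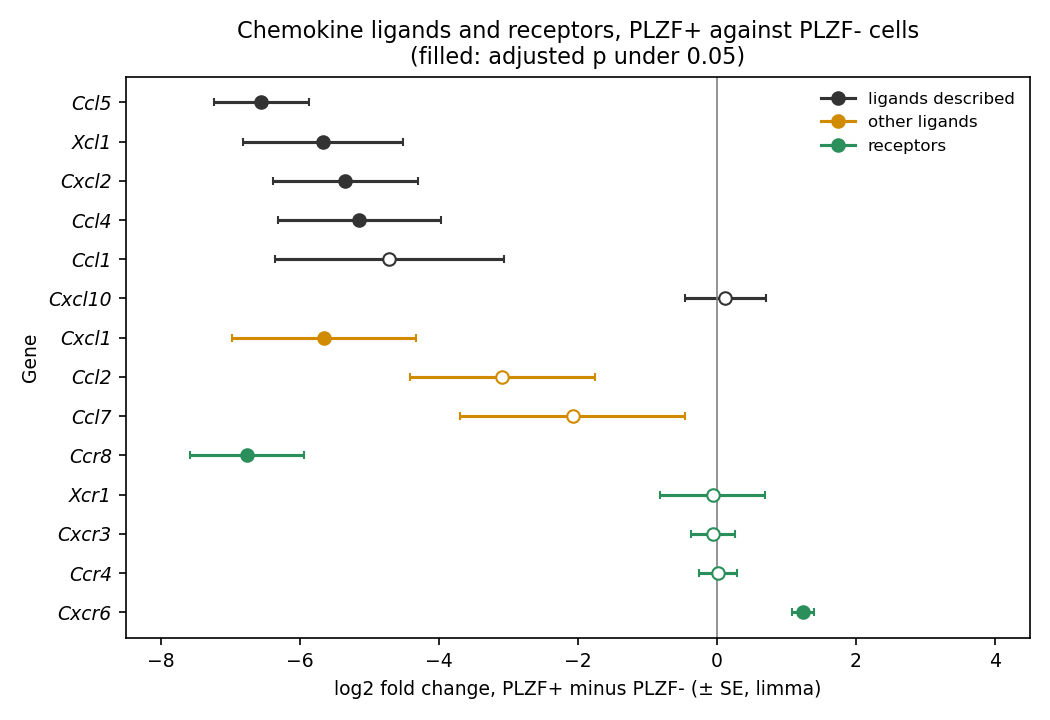
Log2 fold change of PLZF+ against PLZF- cells (x axis, error bars are SE, limma on log2(normalized count + 1)) of the tested chemokine ligands described here, other ligands and receptors (y axis). Filled points have an adjusted p under 0.05. Ccr8 (-6.76) and Ccl5 (-6.56) lie farthest to the left and Cxcr6 (1.24) to the right, with Cxcl10 at 0.12.

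The tested genes nearest to each ligand were found by Euclidean distance on log2(normalized count + 1) over the 4 libraries, a description with no test. For Ccl5 they were Csf2 (distance 0.40), Ctla2a (1.02) and Gp49a (1.09). Csf2, which encodes the cytokine GM-CSF, had 420 and 412 normalized counts in A6 and B6 and 8.05 and 1.12 in A7 and B7, close to Ccl5 in every library. For Cxcl2 they were Itm2a (0.29), Il6 (0.32) and Abca1 (0.34). Il6, a cytokine gene, had 105 normalized counts in A6, 3.10 in A7 and 0 in B7. Slamf6 (0.46), Ai836003 (0.52) and the locus of Csf2rb2 (0.58) were nearest to Xcl1. The Csf2rb2 locus (0.70), Ncf1 (0.74) and Il6 (0.88) were nearest to Ccl4, at larger distances than for Cxcl2. Acoxl (0.29), Agrn (0.36) and Thbs1 (0.36) were nearest to Ccl1. Cxcl10 lay among genes with little difference between subsets, Utp23 (0.12), Ttll5 (0.22) and the locus of Gnb2 and Epo (0.26).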

How the data were processed

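The 4 libraries were made by SMART-seq2 from sorted cells, per the labels. The submitters' processing notes name the build mm10 and the tools HISAT 0.1.6, SAMtools 1.2, Cufflinks 1.2 and Cuffdiff, while they name neither an annotation nor a strand setting. The authors deposited Cuffnorm normalized counts (a signal, not raw counts), Cuffnorm FPKM and Cuffdiff p-values and q-values for 46799 loci. Overlapping loci of one symbol were summed, which gave 46042 genes. Rn45s, which held 26.8% to 33.2% of normalized counts in A6, B6 and A7 and was listed at 0 in B7, entered neither totals nor tests.

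Genes with a mean of at least 10 normalized counts (9234) were tested with limma 3.58.1 in R 4.3.3 on log2(normalized count + 1), using trend and robust moderation and two-sided tests. Their p-values were adjusted over all tested genes by Benjamini-Hochberg, and called under 0.05. This scale understates changes of low genes. Fold changes are PLZF+ minus PLZF-. Replicates are pools of mice, so p-values reflect how pools differ. Reads were estimated from each library's step, the value of 1 read, and 92.5% to 94.3% of values were within 0.05 of a whole number of reads. Directions of Cuffdiff calls were read from group means of the deposited FPKM. The fit was tested on simulated data. Tables were joined in Python 3.11.15 (numpy 2.4.6, pandas 2.3.3), intervals came from scipy 1.17.1, and plots from matplotlib 3.10.9. Promoter sequences came from RefSeq (GRCm38.p6).

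Named were all 9 ligands, the tested genes of 4 lists (other ligands, receptors, handling, promoter factors), the 3 genes nearest each tested ligand and the 3 leading genes of each marker list. Some genes of these lists are not reported here. Other genes were chosen after their values were seen. The members and lists were chosen with earlier results of these data known. The alternatives were other pseudocounts, filters, scalings, the FPKM table, other model settings, each library left out and the authors' Cuffdiff calls.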

Additional observations from a re-analysis of the deposited data

How the results depend on the processing

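No paired analysis was possible because column codes carry none of the labels' replicate numbers. The letter of the code (A or B) was tried as a term, though no label says that it pairs libraries. Voom on estimated reads and unsummed loci were chosen after seeing the data. Where a library was left out, the lone library of its subset was assumed to vary like the other subset. The count of 4 ligands lower was 1 (Ccl5) at a minimum mean of 50 and by voom, and 1 to 4 with a library left out (1 without A6 or B6). Counts over all genes, 459 lower and 229 higher, were 277 and 108 without a filter, 179 and 26 without the trend and robust moderation and 690 and 426 with the letter. With a library left out they were 230 to 318 and 38 to 336. In the other lists, the count of other ligands called (1) was 0 with a pseudocount of 0.25 and at a minimum mean of 50, 2 in the authors' deposited table, and 0 to 1 with a library left out. Of receptors (2), 0 were called without the trend and robust moderation and 1 in the authors' deposited table. Of handling genes (2), 1 was called without a filter, at a minimum mean of 50, without the trend and robust moderation, by voom and in the authors' deposited table, and 1 to 2 with a library left out. Of promoter factors (5), 3 were called without a filter, 0 without the trend and robust moderation and 2 to 4 with a library left out. By voom the adjusted p of Xcl1, Cxcl2 and Ccl4 was 0.054, 0.093 and 0.14.

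Only genes that had no call changed sign. With 1 library left out, log2 fold changes ran from -0.070 (without B6) to 0.31 for Cxcl10 (-0.06 without A7), from -0.018 (without B6) to 0.048 for Ccr4, and from -0.45 to 0.33 (without B6) for Cxcr3 (0.12 without A7). They ran from -1.02 to 0.89 (without A6) for Xcr1 (0.045 without B7), from -0.60 (without A6) to 1.23 for Rela, from -0.25 to 0.037 (without B6) for Klf13 and from -0.37 (without B6) to 0.85 for Runx3. Equal totals gave 0.051 for Cxcr3, 0.040 for Xcr1 and 0.0029 for Klf13, and moved the median of all genes by 0.11. Voom gave 0.0094 for Cxcr3 and 0.22 for Xcr1. The cause of these changes was not tested. Depth limits genes of few reads most.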

Other observations

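Chemokine ligand genes lie in clusters on mouse chromosomes, and the reads were spread unevenly within them. In a cluster of 7 ligand loci on chromosome 5 (90759298 to 90905938, mm10), Cxcl1, Cxcl2 and Cxcl3 had reads in both PLZF- libraries. Their 190 reads in PLZF- libraries stood against 4 in PLZF+ libraries, all from Cxcl2. Cxcl5, Ppbp, Pf4 and Cxcl15 of the same cluster were listed at 0 in all 4 libraries. Cxcl3, a relative of Cxcl2, had 6.75 and 14.6 normalized counts in A6 and B6 and 0 in A7 and B7, and lay under the filter.

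On chromosome 11, a cluster of 5 ligand loci (83525771 to 83664683) had 751 reads in PLZF- and 21 in PLZF+ libraries, of which Ccl5 gave 631 and 18. Ccl9 had 8 reads, all in A6, and Ccl6 was listed at 0. A cluster of 6 loci on the same chromosome (82028224 to 82305690) had 99 reads in PLZF- and 29 in PLZF+ libraries, and the 29 came from Ccl2 (13) and Ccl7 (16) in A7. Ccl1 of that cluster had 0 reads in A7. On chromosome 8, Ccl17 and Cx3cl1, which neighbour Ccl22, had 4 and 2 reads in A7 and none in the other libraries.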
